A study of Mus musculus with 12 samples.

Results

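The genes described here are 42 mouse genes of the WNT pathway that act at or near the cell surface, together with a few feedback and nuclear genes: 13 ligands, 9 Frizzled receptors, 7 coreceptors or other receptors, 7 secreted antagonists and 6 feedback genes or nuclear factors. They were listed by symbol, with no measured value in the rule, among the 54232 genes of the count files. Of the 42, 40 were read at least once, Wnt2 and Sfrp4 were not read in any library, and 26 had enough counts to be tested. RNA was sequenced from MMTV-NIC mouse breast cancer cells, a line of tumour cells from mice in which the mouse mammary tumour virus promoter drives an activated Neu (ErbB2) in mammary epithelium together with Cre recombinase. The 4 groups of 3 libraries were AXL WT cells in 21% oxygen (AXL WT normoxia), AXL WT cells in 1% oxygen (AXL WT hypoxia), AXL KO cells in 21% oxygen (AXL KO normoxia) and AXL KO cells in 1% oxygen (AXL KO hypoxia). All groups carry this oncogene, and AXL, knocked out in the KO cells, is a cell surface kinase that binds GAS6. How long the cells were kept in 1% oxygen, how many knockout clones were used and how the replicates arose were not stated in the sources used here. Each p-value thus reflects nothing but the spread among these libraries, and that spread may be technical. Groups follow the sample titles, since the genotype tag contradicts the title in 6 samples.

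WNT proteins are secreted, lipid-modified ligands that bind Frizzled receptors. Together with the coreceptors LRP5 and LRP6 they stabilise β-catenin, which then works with TCF and LEF factors on target genes such as Axin2, while other ligands such as WNT5A act mainly through Frizzleds with ROR1, ROR2 or RYK. R-spondins bind LGR4, LGR5 and LGR6 and hold back RNF43 and ZNRF3, the ubiquitin ligases that remove Frizzleds from the cell surface, and DKK, SFRP and WIF1 proteins block the ligands or their coreceptors. In the mammary gland WNT signals are known for their role in duct branching and stem cell upkeep, and MMTV insertions next to Wnt genes were an early route to mouse mammary tumours.

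Counts in genes ran from 45297267 to 58775422 per library. Axl stood at means of 934 and 519 CPM (counts scaled to the size of the library) in AXL WT normoxia and hypoxia, and at 3.22 and 2.05 in AXL KO. The AXL WT hypoxia libraries stood apart from each other: their biological coefficient of variation was 0.402, against 0.0565 to 0.0895 within each other group, and the model shares 1 spread over all groups. Comparisons that do not use AXL WT hypoxia thus carry part of its spread, which can hide differences in them. Summed mammary epithelium markers ran from 1052 to 4749.8 CPM over these 3 libraries, against 3748 to 3844 in AXL WT normoxia, 2249 to 2553 in normoxia and 2379.7 to 2476 in hypoxia in AXL KO. Krt8, Krt18 and Erbb2 were present in all groups, Krt19 and Pgr were at or near 0, and the leukocyte genes Ptprc and Cd3e were near 0. Other marker sums moved with genotype or oxygen: basal and myoepithelial markers summed to 31.8 to 34.1 CPM (AXL WT normoxia), 50.3 to 138 (AXL WT hypoxia), 13.5 to 15.7 (AXL KO normoxia) and 5.17 to 6.01 (AXL KO hypoxia), and leukocyte markers, nearly all Cd68, 11.02 to 12.6, 6.46 to 9.58, 59.5 to 85.2 and 48.96 to 55.4 in the same order. Endothelial markers summed to 0.391 to 0.758, 0.905 to 2.72, 3.28 to 4.68 and 16.1 to 17.9 CPM. Adipocyte markers summed to 33.8 to 41.8, 8.55 to 27.9, 8.65 to 13.6 and 4.599 to 4.61. Their part in the results was not tested. Values of members that rest on AXL WT hypoxia are therefore also given "on replicate 1 alone", that is, with replicates 2 and 3 of that group left out. The group then holds 1 library, which is assumed to vary like the libraries of the other groups. With all 3 libraries this group varied far more, so an adjusted p of that fit does not measure its spread. Replicates 2 and 3 were more alike (chi-square of the counts per degree of freedom 116) than either was to replicate 1 (391 and 222). Replicate 1 is thus the library least like the others in its group. For comparisons that use AXL WT hypoxia, the value without replicate 1 is given where it gained or turned a call or moved a called value by over 1.5 times. Where no adjusted p stands beside such a value, the call was as with all libraries.

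A member was called in a comparison at an adjusted p under 0.05 (edgeR's quasi-likelihood test, adjusted over all 16767 genes tested). The design text puts AXL WT against AXL KO in hypoxia first. In hypoxia 11 of the 26 tested members were higher in AXL KO and 10 were lower, while the background over all genes was 63% called, with 29.9% higher and 33% lower. In normoxia 12 were higher and 6 lower in AXL KO, beside 59.7% of all genes called, 29.7% higher and 30% lower. Hypoxia raised 5 members and lowered 9 in AXL WT, beside 59.8% of all genes called, 29.2% higher and 30.7% lower. In AXL KO hypoxia raised 5 and lowered 8, beside 58% of all genes, 27.3% higher and 30.6% lower. The 3 libraries of a group lay wholly above or below those of the other group for 21 members between genotypes in hypoxia (62.6% of all genes), for 24 in normoxia (79.7%), for 13 between oxygen levels in AXL WT (61.4%) and for 19 in AXL KO (76%). With library size as the only scaling the members split into 8 higher and 10 lower between genotypes in hypoxia and 12 and 7 in normoxia. For hypoxia they split into 5 and 13 in AXL WT and 4 and 11 in AXL KO. All genes then split into 4170 higher and 6481 lower between genotypes in hypoxia (5016 and 5541 with TMM) and 3717 and 6667 in normoxia (4976 and 5033). For hypoxia all genes split into 3473 and 7001 in AXL WT (4895 and 5140) and 3516 and 6251 in AXL KO (4582 and 5137). On the 6 compared libraries alone, with TMM, 6305 genes were higher and 6597 lower between genotypes in normoxia. In the same setting hypoxia raised 5859 and lowered 6309 in AXL KO. A member not called in these comparisons may thus still differ.

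The response to hypoxia differed between the genotypes for 9 members, by the interaction test, beside 28.8% of all genes: 3 responses were higher in AXL KO (all genes 13.5%) and 6 lower (15.3%). Genotype comparisons share libraries with the oxygen comparisons, so their counts are not independent. The median log2 fold change of the tested members was 0.68 for AXL KO against WT in hypoxia (all genes −0.04; members 0.22 on replicate 1 alone) and 0.52 in normoxia (all genes −0.03). It was −0.64 for hypoxia in AXL WT without Wnt5a, which has no count there (all genes −0.02; −0.07 on replicate 1 alone with Wnt5a at 0), and −0.23 for hypoxia in AXL KO (all genes −0.03). With library size as the only scaling the medians between genotypes were 0.51 in hypoxia (all genes −0.21) and 0.27 in normoxia (all genes −0.29). For hypoxia they were then −0.83 in AXL WT with Wnt5a kept in (all genes −0.32) and −0.44 in AXL KO (all genes −0.23). Of the 26 tested members 5 (Wnt5a, Wnt6, Wnt7a, Fzd3 and Rnf43) were below the low-count filter in at least 1 group. Those that entered only through 1 genotype had to differ, so the counts describe the tested members and support nothing about the 42. The plot of fold changes gives each tested member but Wnt5a.

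**Figure D1:**
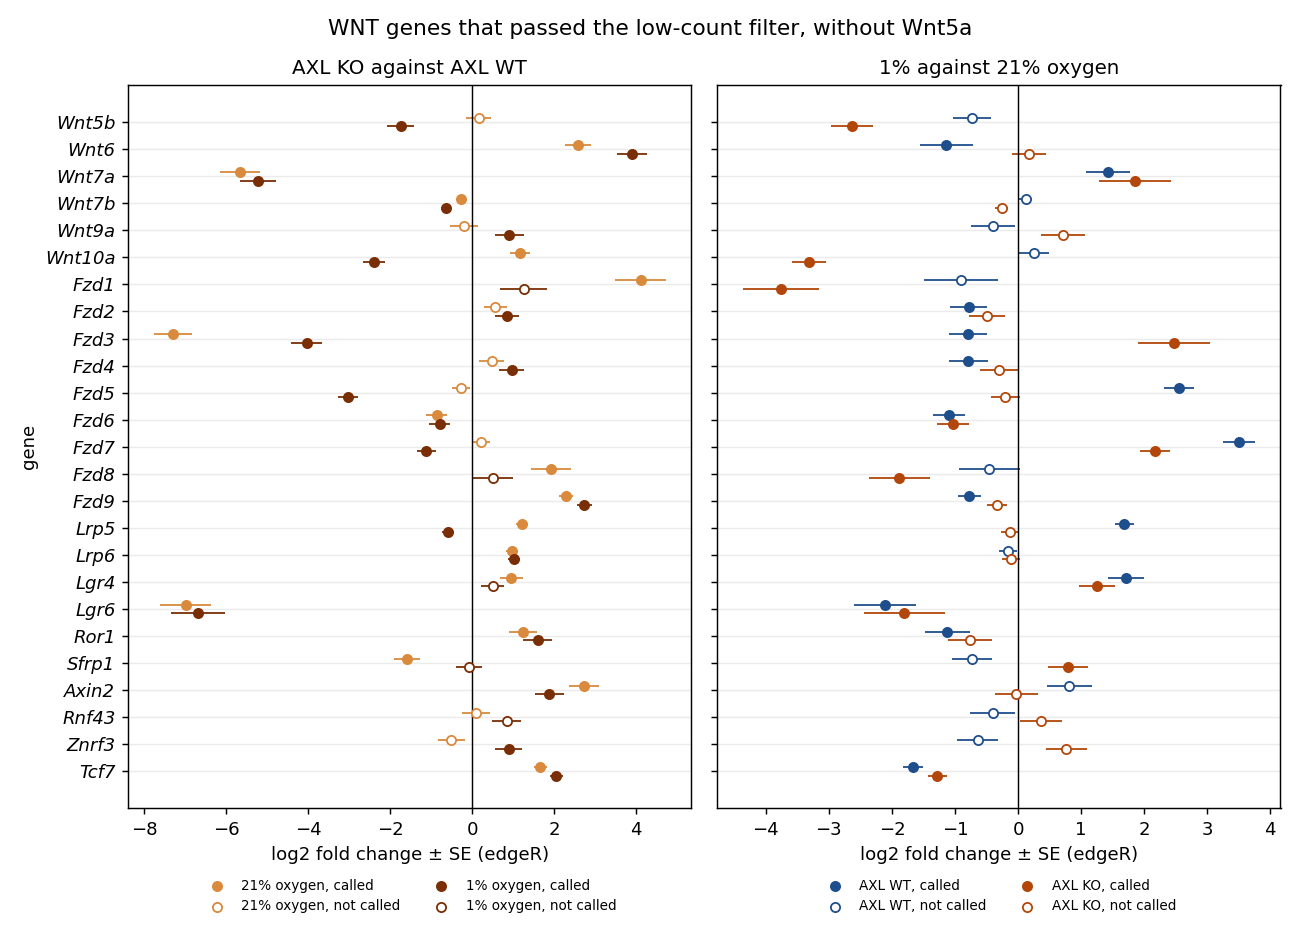
Log2 fold change (x axis) ± SE from edgeR for the 25 tested members other than Wnt5a (y axis), for AXL KO against AXL WT in 21% and 1% oxygen (left) and for 1% against 21% oxygen in AXL WT and AXL KO (right). Filled points were called at an adjusted p under 0.05 and open points were not; Lgr6 and Wnt7a lie farthest to the left at both oxygen levels together with Fzd3, and Fzd7 lies farthest to the right in AXL WT hypoxia.

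Among the ligands, Wnt7b made up most of the ligand mRNA in every library, Wnt5a was read only in AXL KO cells, Wnt7a was nearly lost in AXL KO cells, and Wnt10a and Wnt5b fell in hypoxia in AXL KO cells. Levels of different genes were compared per length, as CPM per kilobase of exons. Wnt7b, a ligand of the β-catenin branch that is expressed in mammary epithelium, made up 92.1% to 92.7% of the summed level of the 13 ligands in AXL WT normoxia and 90.2% to 92.7% in AXL WT hypoxia. Its share was 82.6% to 87.2% in normoxia and 90.4% to 90.9% in hypoxia in AXL KO. The summed level was 79.2 to 89.5 CPM per kilobase in AXL WT normoxia, 87.2 to 106 in AXL WT hypoxia, 72.4 to 78.1 in normoxia and 57.2 to 63.01 in hypoxia in AXL KO. Since the samples are bulk RNA, fewer cells that express a gene and less RNA per cell cannot be told apart, here and below.

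**Figure D2:**
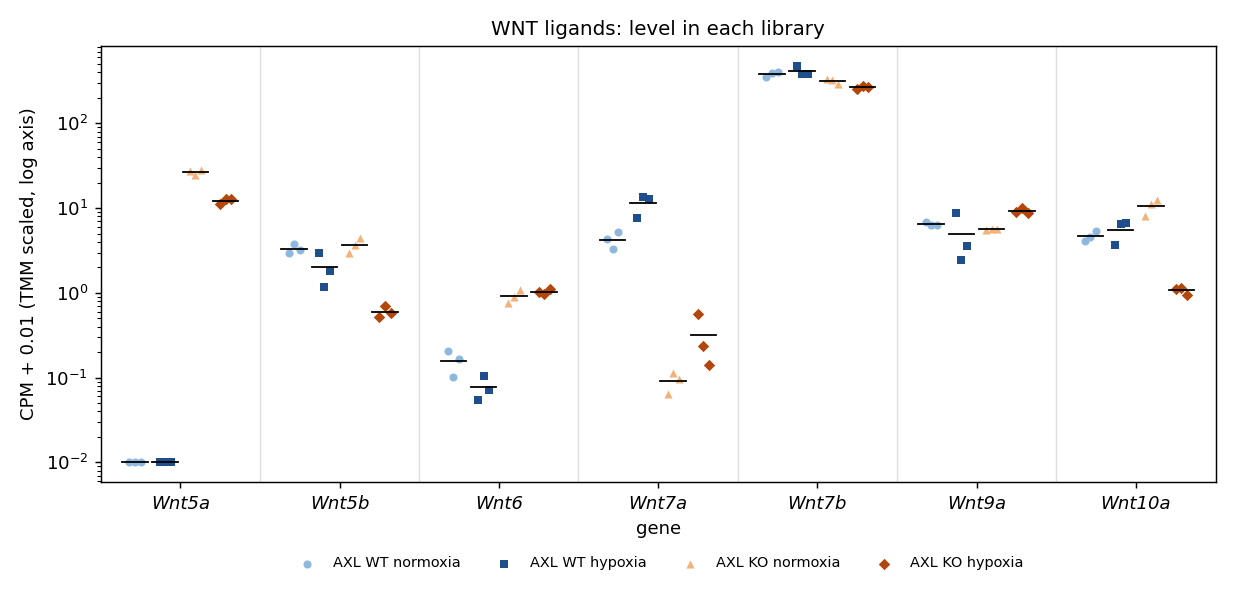
CPM + 0.01 (TMM scaled, y axis, log scale) of the 7 tested WNT ligands (x axis) in each of the 12 libraries, with marker shape and colour giving the group and black bars the group means. Wnt5a sits at the bottom (no count) in all 6 AXL WT libraries, and Wnt7a, Wnt10a and Wnt5b are the ligands whose AXL KO hypoxia points lie lowest relative to AXL WT hypoxia.

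Wnt7b (log2 fold changes are given ± SE) stood at 357, 390.1 and 404 CPM in normoxia and 479, 388 and 386 in hypoxia in AXL WT, and at 333, 328 and 293 in normoxia and 253, 279 and 267 in hypoxia in AXL KO. The 3 AXL KO libraries lay below the 3 AXL WT libraries at both oxygen levels, and AXL KO hypoxia held the lowest values. Wnt7b was lower in AXL KO hypoxia than in AXL WT hypoxia by a log2 fold change of −0.65 ± 0.10 (adjusted p = 0.000204; −0.85 on replicate 1 alone). The difference in normoxia was smaller (−0.27 ± 0.10, adjusted p = 0.0391). That call in normoxia was lost in 8 of the 12 fits that left out 1 library (adjusted p = 0.0513 to 0.197), that is, without any library other than AXL WT hypoxia replicates 1, 2 and 3 and AXL KO hypoxia replicate 1; no low-count filter and the replicate number as a block also removed it. The response to hypoxia was 0.12 ± 0.10 (adjusted p = 0.331) in AXL WT, or 0.33 (adjusted p = 0.00542) on replicate 1 alone. In AXL KO it was −0.25 ± 0.10 (adjusted p = 0.0521), and 13 of its 23 alternatives called it lower, among them the fit on replicate 1 alone (−0.25, adjusted p = 0.00425). The difference of responses was −0.38 ± 0.15 (adjusted p = 0.074), or −0.58 (adjusted p = 0.00087) on replicate 1 alone, and 6 of 22 alternatives called that difference.

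Wnt5a, the main ligand of the branch that runs without β-catenin (ENSMUSG00000021994, chromosome 14, 28504750 to 28527448, plus strand in GRCm38, as are all gene positions here), had no count in any of the 6 AXL WT libraries. It was counted 1525, 1412 and 1647 times in the AXL KO normoxia libraries and 456, 578 and 582 times in the AXL KO hypoxia libraries, or 27.2, 24.4 and 28.6 and 11.1, 12.9 and 12.8 CPM. Against a floor of 3 counts over the AXL WT group, Wnt5a was at least 1494-fold higher in AXL KO in normoxia and at least 558-fold higher in hypoxia. Within AXL KO it fell in hypoxia (−1.12 ± 0.15, adjusted p = 0.000402), and the groups did not overlap. A fold for AXL WT or for the difference between genotypes cannot be given. Per length, Wnt5a reached 3.98% to 5.04% of ligand mRNA in AXL KO normoxia and 2.47% to 2.73% in AXL KO hypoxia.

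Wnt7a, a ligand known from limb and uterine patterning (ENSMUSG00000030093, chromosome 6, 91363981 to 91411363, minus strand), stood at 4.26, 3.31 and 5.17 CPM in normoxia and 7.75, 13.5 and 12.9 in hypoxia in AXL WT, and at 0.0536, 0.103 and 0.0867 in normoxia and 0.558, 0.224 and 0.132 in hypoxia in AXL KO. Every AXL WT library lay above every AXL KO library. Both AXL KO groups were below the low-count filter. Wnt7a thus entered the test through AXL WT, and its p-values between genotypes give no separate support. Wnt7a was lower in AXL KO, with −5.66 ± 0.49 (adjusted p = 1.19e-06) in normoxia and −5.24 ± 0.44 (adjusted p = 1.19e-06) in hypoxia (−4.7 on replicate 1 alone). AXL KO hypoxia replicate 1 held the highest AXL KO value, and without it the difference in hypoxia was −5.99. Hypoxia raised Wnt7a in AXL WT (1.42 ± 0.35, adjusted p = 0.00385; 0.88, adjusted p = 0.0115 on replicate 1 alone). In AXL KO, where its level was low, it was also called higher (1.85 ± 0.57, adjusted p = 0.0148), from summed counts of 14 in normoxia and 39 in hypoxia. That call in AXL KO was lost on leaving out any of AXL KO normoxia replicate 1 and AXL KO hypoxia replicate 1 (adjusted p = 0.053 to 0.095); limma-voom also removed it. The value without AXL KO hypoxia replicate 1 was 1.11. The difference between the responses was 0.43 ± 0.64 (adjusted p = 0.661; 0.97 on replicate 1 alone).

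Wnt10a and Wnt6, whose genes lie next to each other on chromosome 1 on the same strand with 6193 bases between them, did not move alike in hypoxia. Wnt10a, a ligand of the β-catenin branch known from tooth and skin development (ENSMUSG00000026167, chromosome 1, 74791516 to 74804179, plus strand), stood at 4.07, 4.56 and 5.36 CPM in normoxia and 3.71, 6.45 and 6.61 in hypoxia in AXL WT, and at 8.15, 11.1 and 12.3 in normoxia and 1.12, 1.14 and 0.924 in hypoxia in AXL KO. AXL KO normoxia held the highest values and AXL KO hypoxia the lowest, with no overlap between either and any other group. Wnt10a was higher in AXL KO in normoxia (1.18 ± 0.24, adjusted p = 0.00111) and lower in hypoxia (−2.4 ± 0.26, adjusted p = 1.05e-05; −1.81 on replicate 1 alone). Hypoxia lowered it in AXL KO (−3.31 ± 0.27, adjusted p = 1.78e-06) and gave 0.26 ± 0.24 (adjusted p = 0.365) in AXL WT, where the libraries overlapped. That response was −0.32 on replicate 1 alone and 0.49 (adjusted p = 0.0322) without it. The responses differed between genotypes by −3.57 ± 0.35 (adjusted p = 4.15e-05; −2.99 on replicate 1 alone).

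Wnt6, a ligand of epithelial tubules, was read at low levels: 0.194, 0.093 and 0.157 CPM in normoxia and 0.0442, 0.0937 and 0.0623 in hypoxia in AXL WT, and at 0.75, 0.897 and 1.08 in normoxia and 1.02, 0.963 and 1.1002 in hypoxia in AXL KO. The AXL KO libraries lay above all AXL WT libraries, which were below the low-count filter. Wnt6 thus entered the test through AXL KO, and its p-values between genotypes give no separate support. Wnt6 was higher in AXL KO by 2.59 ± 0.32 (adjusted p = 2.09e-05) in normoxia and 3.9 ± 0.37 (adjusted p = 2.98e-06) in hypoxia (4.46 on replicate 1 alone). Within AXL KO its mean was 0.907 CPM in normoxia and 1.03 in hypoxia (0.18 ± 0.27, adjusted p = 0.599), while that of Wnt10a was 10.5 and 1.06. In AXL WT Wnt6 was called lower in hypoxia (−1.14 ± 0.42, adjusted p = 0.0465) from overlapping libraries. That call was lost in 8 of the 12 fits that left out 1 library (adjusted p = 0.0501 to 0.217), that is, without any library other than AXL WT normoxia replicate 2, AXL WT hypoxia replicate 2, AXL KO normoxia replicates 1 and 2; RLE size factors, no low-count filter, DESeq2, limma-voom, voom with a weight per group, the replicate number as a block and the 6 compared libraries alone also removed it. On replicate 1 alone it was −1.69 (adjusted p = 0.0825).

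Wnt5b, a close relative of Wnt5a, stood at 2.94, 3.796 and 3.19 CPM in normoxia and 2.98, 1.17 and 1.83 in hypoxia in AXL WT, and at 2.97, 3.62 and 4.49 in normoxia and 0.509, 0.694 and 0.572 in hypoxia in AXL KO. The AXL KO hypoxia libraries were lowest and overlapped with no other group, and the normoxia groups overlapped. Hypoxia lowered Wnt5b in AXL KO (−2.63 ± 0.33, adjusted p = 4.39e-05), and the response in AXL WT was −0.73 ± 0.30 (adjusted p = 0.0543; −0.14 on replicate 1 alone and −1.12, adjusted p = 0.00138 without it). The difference between these responses was −1.91 ± 0.44 (adjusted p = 0.00809; −2.49 on replicate 1 alone). AXL KO was lower than AXL WT in hypoxia (−1.75 ± 0.33, adjusted p = 0.00069; −2.33 on replicate 1 alone), and in normoxia the difference was 0.16 ± 0.30 (adjusted p = 0.663). Wnt9a, a ligand of the β-catenin branch, stood at 6.78, 6.38 and 6.27 CPM in normoxia and 8.79, 2.46 and 3.53 in hypoxia in AXL WT, and at 5.56, 5.62 and 5.74 in normoxia and 8.901, 10.01 and 8.82 in hypoxia in AXL KO. AXL WT hypoxia replicates 2 and 3 were its lowest values. Wnt9a was called higher in AXL KO in hypoxia (0.91 ± 0.35, adjusted p = 0.0384). That call was lost in 11 of the 12 fits that left out 1 library (adjusted p = 0.0526 to 0.133), that is, without any library other than AXL WT hypoxia replicate 1; library size as the only scaling, a strict filter and the 6 compared libraries alone also removed it. The value was 0.07 (adjusted p = 0.695) on replicate 1 alone and 1.62 without AXL WT hypoxia replicate 1. Its response in AXL WT was −0.39 ± 0.35 (adjusted p = 0.346), and its sign turned with the libraries used (0.45, adjusted p = 0.00645 on replicate 1 alone and −1.1, adjusted p = 6.03e-05 without it). In AXL KO every hypoxia library lay above every normoxia library. That rise was not called with all 12 libraries, but 5 of 23 alternatives called it (0.51 to 0.75 over all 23). Without AXL WT hypoxia replicate 1 it was 0.72 (adjusted p = 0.000413). The difference of responses was 1.11 ± 0.49 (adjusted p = 0.111). It was 0.27 on replicate 1 alone and 1.82 (adjusted p = 1.95e-05) without replicate 1.

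The other ligands were too low to test. Wnt2 was not read, and Wnt3, Wnt3a, Wnt4, Wnt10b and Wnt11 had 7, 5, 25, 9 and 24 counts over all 12 libraries. Of the 25 counts of Wnt4, a ligand that acts downstream of progesterone in the mammary gland, 24 lay in AXL KO. In normoxia it had 16 counts in AXL KO and 1 in AXL WT, a ratio of 15.6 (95% counting interval 2.43 to 656), and in hypoxia it was at least 2.76-fold higher in AXL KO. Wnt11, a ligand of cell movements, had 18 counts in AXL KO hypoxia, against 2 in AXL WT hypoxia, a ratio of 9.33 (95% counting interval 2.23 to 82.9), and 3 in AXL KO normoxia, a ratio of 7.84 (95% counting interval 2.29 to 41.6). The ratios and bounds cover counting error only. Wnt3, Wnt3a and Wnt10b had at most 4 counts in any group.

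The promoters of Wnt7a and Wnt5b are printed because these ligands show contrasting patterns: Wnt7a was high in AXL WT and rose there in hypoxia, while Wnt5b fell in AXL KO hypoxia. The windows run from 250 bases before to 50 after a gene's start as RefSeq gives it (GRCm38.p6), and 28 of the 42 members have at least 1. This start can differ from that of the gene model used for counting. They were searched on both strands for ACGTG, the core of the hypoxia response element bound by HIF, and for CTTTGAT, a TCF/LEF motif, and any match is in capitals, on whichever strand it lies. Of all 32851 promoters of this length, 19.6% hold ACGTG and 3.73% hold CTTTGAT. A match is a description of the sequence and not a binding site, and no match says only that these letters are not in this window.
Wnt7a, chr6:91411304-91411603, minus strand: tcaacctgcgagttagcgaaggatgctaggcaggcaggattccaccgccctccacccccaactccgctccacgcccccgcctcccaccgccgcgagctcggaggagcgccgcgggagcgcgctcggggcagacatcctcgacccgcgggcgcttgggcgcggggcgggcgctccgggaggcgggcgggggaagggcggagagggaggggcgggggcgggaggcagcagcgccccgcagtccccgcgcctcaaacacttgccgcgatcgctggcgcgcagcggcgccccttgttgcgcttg
Wnt5b, chr6:119544298-119544597, minus strand: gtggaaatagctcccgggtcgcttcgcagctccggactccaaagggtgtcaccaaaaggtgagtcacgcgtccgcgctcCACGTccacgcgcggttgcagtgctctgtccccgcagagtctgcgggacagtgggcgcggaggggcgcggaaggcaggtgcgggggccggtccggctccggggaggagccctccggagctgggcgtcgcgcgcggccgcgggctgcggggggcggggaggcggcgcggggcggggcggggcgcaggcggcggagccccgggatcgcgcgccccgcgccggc
The Wnt7a window holds neither motif. Wnt5b has 3 windows in the table, of which the first is printed. It holds 1 match of ACGTG, starting at position −171 from the gene's start and read on the opposite strand as CACGT. The other Wnt5b windows, with 4 and 7 CpG dinucleotides, hold no ACGTG, and 1 of them holds CTTTGAT. The printed windows have 42 and 47 CpG dinucleotides, against a median of 7 over all promoters. Over the 28 members with a window, ACGTG was found in 6 and CTTTGAT in 2.

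All 9 Frizzled receptors were tested, and each was called in at least 1 comparison. Fzd7 rose in hypoxia in both genotypes and became the main Frizzled mRNA there, Fzd5 rose in hypoxia in AXL WT, Fzd1 and Fzd8 were high in AXL KO normoxia and fell in AXL KO hypoxia, Fzd9 was higher in AXL KO, and Fzd3 was nearly lost in AXL KO. Fzd6 was lower in hypoxia in both genotypes. Between genotypes 3 Frizzleds were higher and 4 lower in AXL KO in hypoxia (63% of all genes called), and 3 and 2 in normoxia (59.7%). Hypoxia raised 2 and lowered 5 in AXL WT (59.8%), and raised 2 and lowered 3 in AXL KO (58%).

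**Figure D3:**
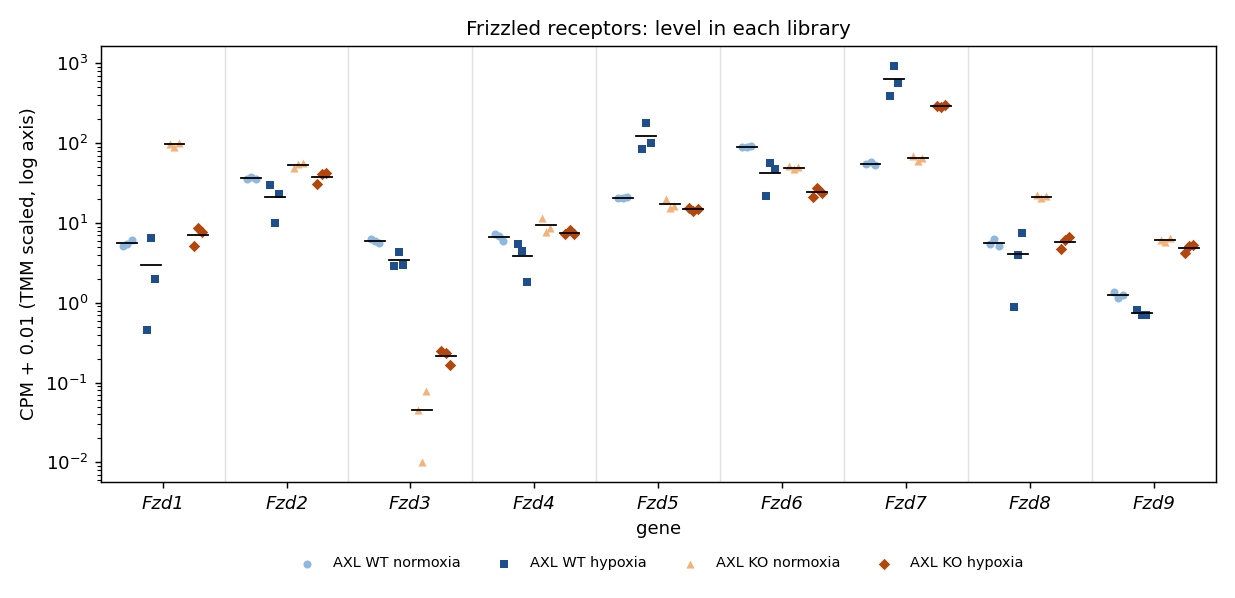
CPM + 0.01 (TMM scaled, y axis, log scale) of the 9 Frizzled receptors (x axis) in each of the 12 libraries, with marker shape and colour giving the group and black bars the group means. Fzd7 is highest in both hypoxia groups, Fzd1 spreads over a wide range within AXL WT hypoxia, and Fzd3 is near the bottom in all 6 AXL KO libraries.

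Fzd7, the Frizzled known from mammary stem cells and triple-negative breast cancer (ENSMUSG00000041075, chromosome 1, 59482424 to 59486955, plus strand), stood at 54.5, 58.6 and 53.5 CPM in normoxia and 394, 933 and 567 in hypoxia in AXL WT, and at 68.3, 59.4 and 65.98 in normoxia and 292, 284 and 297 in hypoxia in AXL KO. All hypoxia libraries lay above all normoxia libraries, and AXL WT hypoxia lay above AXL KO hypoxia. Hypoxia raised Fzd7 in AXL WT (3.51 ± 0.25, adjusted p = 5.57e-07; 2.84 on replicate 1 alone) and in AXL KO (2.17 ± 0.24, adjusted p = 1.5e-05). The rise was smaller in AXL KO, with a difference of responses of −1.33 ± 0.32 (adjusted p = 0.00961; −0.66, adjusted p = 0.000137 on replicate 1 alone). In hypoxia AXL KO was lower than AXL WT, with −1.12 ± 0.23 (adjusted p = 0.00116; −0.44, adjusted p = 0.000309 on replicate 1 alone), and in normoxia the difference was 0.22 ± 0.23 (adjusted p = 0.428).

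The promoter of Fzd7 is printed because Fzd7 showed the largest hypoxia response among the tested members in AXL WT. It holds neither motif in this window and 24 CpG dinucleotides. The window ends at 59482196, before the start of the counted gene model at 59482424. That of Fzd9 is printed beside it as the 1 Frizzled window in the table that holds ACGTG. Among tested members the windows of Wnt5b and Wnt9a hold it as well.
Fzd7, chr1:59481897-59482196, plus strand: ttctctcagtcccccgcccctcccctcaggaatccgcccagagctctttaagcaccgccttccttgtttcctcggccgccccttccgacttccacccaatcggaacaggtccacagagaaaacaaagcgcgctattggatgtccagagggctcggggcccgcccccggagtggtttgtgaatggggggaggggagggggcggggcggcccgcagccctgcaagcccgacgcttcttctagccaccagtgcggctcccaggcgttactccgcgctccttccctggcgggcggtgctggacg
Fzd9, chr5:135250998-135251297, minus strand: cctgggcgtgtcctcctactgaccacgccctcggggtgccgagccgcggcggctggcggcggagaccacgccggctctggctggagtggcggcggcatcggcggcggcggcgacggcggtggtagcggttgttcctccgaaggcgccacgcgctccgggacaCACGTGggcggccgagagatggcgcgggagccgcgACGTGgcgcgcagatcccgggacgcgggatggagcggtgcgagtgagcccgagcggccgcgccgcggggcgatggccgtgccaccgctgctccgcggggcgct
In the Fzd9 window ACGTG matches 3 times, at positions −88, −87 and −53 from the RefSeq start. The gene model used for counting Fzd9 runs from 135248938 to 135251230 on the minus strand, so these matches lie inside it. The matches at −88 and −87 overlap, since they are the same palindrome CACGTG read on both strands. The window has 53 CpG dinucleotides.

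Fzd5, a receptor that can bind several WNT ligands, stood at 20.7, 20.6 and 20.9 CPM in normoxia and 83.3, 181 and 101 in hypoxia in AXL WT, and at 19.7, 15.4 and 16.5 in normoxia and 15.6, 14.1 and 15.03 in hypoxia in AXL KO. The 3 AXL WT hypoxia libraries lay above all others. Hypoxia raised Fzd5 in AXL WT (2.55 ± 0.24, adjusted p = 4.05e-06; 2.02 on replicate 1 alone), the response in AXL KO was −0.20 ± 0.23 (adjusted p = 0.471), and the difference of responses was −2.76 ± 0.33 (adjusted p = 0.000123; −2.22 on replicate 1 alone). In hypoxia AXL KO was lower, with −3.03 ± 0.24 (adjusted p = 9.03e-07; −2.49 on replicate 1 alone), and in normoxia the difference was −0.27 ± 0.23 (adjusted p = 0.325).

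Fzd1 (ENSMUSG00000044674, chromosome 5, 4753839 to 4758035, minus strand) stood at 5.16, 5.45 and 6.08 CPM in normoxia and 0.442, 6.54 and 1.99 in hypoxia in AXL WT, and at 98.9, 88.5 and 102 in normoxia and 5.12, 8.56 and 7.66 in hypoxia in AXL KO. AXL KO normoxia lay far above all other groups, and the 3 AXL WT hypoxia libraries covered a range that included both the AXL WT normoxia values and values far below them. Fzd1 was higher in AXL KO in normoxia (4.11 ± 0.61, adjusted p = 0.000111) and fell in hypoxia in AXL KO (−3.76 ± 0.60, adjusted p = 0.000259). In AXL WT the response was −0.90 ± 0.58 (adjusted p = 0.199), or −3.63 (adjusted p = 1.4e-06) on replicate 1 alone. The difference between genotypes in hypoxia was 1.26 ± 0.58 (adjusted p = 0.0784), or 4.0 (adjusted p = 5.23e-07) on replicate 1 alone. The responses were called different (−2.86 ± 0.81, adjusted p = 0.0208), but on replicate 1 alone the difference was −0.11 (adjusted p = 0.91). The interaction call was lost on leaving out AXL KO hypoxia replicate 1 (adjusted p = 0.0554); no low-count filter also removed it. It was −1.59 without AXL WT hypoxia replicate 2.

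Fzd8 followed a like course in AXL KO: it stood at 5.46, 6.23 and 5.17 CPM in normoxia and 0.883, 3.94 and 7.42 in hypoxia in AXL WT, and at 22.2, 20.5 and 21.5 in normoxia and 4.71, 6.16 and 6.58 in hypoxia in AXL KO. AXL KO normoxia was highest without overlap, and AXL WT hypoxia overlapped with the other groups. Fzd8 was higher in AXL KO in normoxia (1.93 ± 0.49, adjusted p = 0.00464) and fell in hypoxia in AXL KO (−1.88 ± 0.49, adjusted p = 0.00597). The response in AXL WT was −0.46 ± 0.48 (adjusted p = 0.433), or −2.65 (adjusted p = 7.57e-08) on replicate 1 alone. The difference between genotypes in hypoxia was 0.51 ± 0.49 (adjusted p = 0.377), or 2.71 (adjusted p = 6.47e-08) on replicate 1 alone. The difference of responses was −1.42 ± 0.68 (adjusted p = 0.14), and the sign turned with the AXL WT hypoxia libraries used (0.78, adjusted p = 0.0388 on replicate 1 alone and −1.9, adjusted p = 0.000186 without it). Summed fibroblast markers, like Fzd1 and Fzd8, were highest in AXL KO normoxia, at 187 to 201 CPM. They stood at 66.3 to 72.7 in AXL WT normoxia, 72.8 to 96.3 in AXL WT hypoxia and 58.9 to 65.5 in AXL KO hypoxia. Of the 8 markers 5 were tested, and of these 3 were higher and 0 lower in AXL KO normoxia than in AXL WT normoxia (3 and 1 with library size as the only scaling). Between genotypes in hypoxia 2 were higher and 3 lower in AXL KO. Hypoxia raised 3 and lowered 0 in AXL WT, where neither Fzd1 nor Fzd8 was called higher. In AXL KO it raised 1 and lowered 3. Of all genes 58% to 63% were called. In AXL KO normoxia most of the sum was Pdgfrb, at 122 CPM, against 9.27 in AXL KO hypoxia, while Lum, Thy1 and Fap were at or near 0 in all groups. Their part in the result was not tested.

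Fzd9 stood at 1.34, 1.15 and 1.24 CPM in normoxia and 0.795, 0.703 and 0.685 in hypoxia in AXL WT, and at 6.16, 5.796 and 6.43 in normoxia and 4.196, 5.15 and 5.26 in hypoxia in AXL KO. All AXL KO libraries lay above all AXL WT libraries, by 2.3 ± 0.17 (adjusted p = 3.61e-07) in normoxia and 2.74 ± 0.18 (adjusted p = 1.63e-07) in hypoxia (2.61 on replicate 1 alone). In AXL WT it fell in hypoxia (−0.77 ± 0.18, adjusted p = 0.00294; −0.63, adjusted p = 0.0426 on replicate 1 alone), a call that was lost with voom with a weight per group and with the 6 compared libraries alone (adjusted p up to 0.229). In AXL KO the response was −0.33 ± 0.16 (adjusted p = 0.0969).

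Fzd3, a receptor of the planar polarity branch (ENSMUSG00000007989, chromosome 14, 65192449 to 65262463, minus strand), stood at 6.29, 5.94 and 5.57 CPM in normoxia and 2.92, 4.36 and 2.99 in hypoxia in AXL WT, and at 0.0357, 0 and 0.0694 in normoxia and 0.243, 0.224 and 0.154 in hypoxia in AXL KO. Both AXL KO groups lay below all AXL WT libraries and below the low-count filter, with 6 counts in normoxia and 27 in hypoxia in AXL KO. Fzd3 thus entered the test through AXL WT, and its p-values between genotypes give no separate support. It was lower in AXL KO in normoxia (−7.31 ± 0.46, adjusted p = 9.61e-08; −8.21 without AXL KO normoxia replicate 3) and also in hypoxia (−4.04 ± 0.38, adjusted p = 3.13e-06; −3.82 on replicate 1 alone). From these few counts hypoxia was called to raise it in AXL KO (2.48 ± 0.57, adjusted p = 0.00293; 3.39 without AXL KO normoxia replicate 3). In AXL WT it was called lower in hypoxia (−0.79 ± 0.30, adjusted p = 0.0376; −1.01 on replicate 1 alone). That call in AXL WT was lost in 8 of the 12 fits that left out 1 library (adjusted p = 0.0529 to 0.139), that is, without any library other than AXL WT hypoxia replicates 1 and 2 and AXL KO normoxia replicates 2 and 3; RLE size factors, voom with a weight per group and the replicate number as a block also removed it. The difference of responses was 3.27 ± 0.64 (adjusted p = 0.00331; 3.5 on replicate 1 alone and 4.17 without AXL KO normoxia replicate 3).

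Fzd6, often counted as a brake on the β-catenin branch, stood at 88.7, 88.5 and 92.6 CPM in normoxia and 21.996, 56.5 and 47.3 in hypoxia in AXL WT, and at 51.3, 47.1 and 50.02 in normoxia and 21.4, 27.5 and 23.9 in hypoxia in AXL KO. Hypoxia lowered it in AXL WT (−1.1 ± 0.25, adjusted p = 0.00275; −2.02 on replicate 1 alone) and in AXL KO (−1.03 ± 0.25, adjusted p = 0.00457) without overlap, and the difference between the responses was 0.07 ± 0.36 (adjusted p = 0.912), or 1.0 (adjusted p = 3.05e-05) on replicate 1 alone. AXL KO was lower in normoxia (−0.86 ± 0.25, adjusted p = 0.0109). It was also called lower in hypoxia (−0.79 ± 0.25, adjusted p = 0.0173) from overlapping libraries, but on replicate 1 alone the value was 0.13 (adjusted p = 0.33). The call in hypoxia was lost on leaving out any of AXL WT hypoxia replicates 2 and 3 and AXL KO hypoxia replicate 1 (adjusted p = 0.058 to 0.0734); the 6 compared libraries alone also removed it.

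Fzd2 and Fzd4 had small differences that, with all 12 libraries in the fit, were called only in comparisons with AXL WT hypoxia. Fzd2, a receptor of WNT5A among others, stood at 35.2, 37.7 and 36.1 CPM in normoxia and 29.9, 10.1 and 23.2 in hypoxia in AXL WT, and at 48.9, 55.3 and 57.1 in normoxia and 31.2, 40.9 and 42.1 in hypoxia in AXL KO, and AXL WT hypoxia replicate 2 was its lowest library. It was higher in AXL KO in hypoxia (0.85 ± 0.29, adjusted p = 0.0216; 0.34, adjusted p = 0.0489 on replicate 1 alone) and lower in hypoxia in AXL WT (−0.78 ± 0.29, adjusted p = 0.033; −0.27, adjusted p = 0.109 on replicate 1 alone). The genotype call was lost on leaving out any of AXL KO hypoxia replicates 2 and 3 (adjusted p = 0.0621 to 0.0685); library size as the only scaling and the 6 compared libraries alone also removed it. The oxygen call was lost on leaving out any of AXL WT normoxia replicates 1, 2 and 3 and AXL WT hypoxia replicate 3 (adjusted p = 0.0542 to 0.0932); no low-count filter and the 6 compared libraries alone also removed it. In normoxia all AXL KO libraries lay above all AXL WT libraries. The difference was 0.57 ± 0.28 (adjusted p = 0.106), or 0.56 (adjusted p = 0.0333) without AXL WT hypoxia replicate 1. In AXL KO the response to hypoxia was −0.50 ± 0.28 (adjusted p = 0.154).

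Fzd4, which also serves as the norrin receptor in blood vessels, stood at 7.21, 6.87 and 5.97 CPM in normoxia and 5.37, 4.45 and 1.81 in hypoxia in AXL WT, and at 11.7, 7.66 and 8.57 in normoxia and 7.35, 8.08 and 7.22 in hypoxia in AXL KO, with AXL WT hypoxia replicate 3 lowest. It was called higher in AXL KO in hypoxia (0.96 ± 0.31, adjusted p = 0.0184; 0.49, adjusted p = 0.0566 on replicate 1 alone) and lower in hypoxia in AXL WT (−0.79 ± 0.31, adjusted p = 0.0469; −0.30, adjusted p = 0.215 on replicate 1 alone). The genotype call was lost on leaving out AXL KO hypoxia replicate 2 (adjusted p = 0.0528); the 6 compared libraries alone also removed it. The oxygen call was lost in 10 of the 12 fits that left out 1 library (adjusted p = 0.051 to 0.143), that is, without any library other than AXL WT hypoxia replicates 1 and 2; RLE size factors, a strict filter, voom with a weight per group and the 6 compared libraries alone also removed it. In normoxia the difference between genotypes was 0.48 ± 0.31 (adjusted p = 0.2), and in AXL KO the response was −0.30 ± 0.31 (adjusted p = 0.422).

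Per length, the Frizzleds took different shares of their summed mRNA in the groups. In AXL WT normoxia Fzd6 made up 36.9% to 39.4%, Fzd7 24.2% to 26% and Fzd2 19.98% to 20.7%. In AXL KO normoxia Fzd1 led with 29.7% to 31.2%, against 2.56% to 2.97% in AXL WT normoxia. In hypoxia Fzd7 made up 76.6% to 82.2% in AXL WT and 70.5% to 75.6% in AXL KO. The summed Frizzled level was 48.05 to 49.7 CPM per kilobase in AXL WT normoxia, 114 to 251 in AXL WT hypoxia, 71.1 to 77.7 in normoxia and 85.3 to 91.4 in hypoxia in AXL KO. These sums were not tested.

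**Figure D4:**
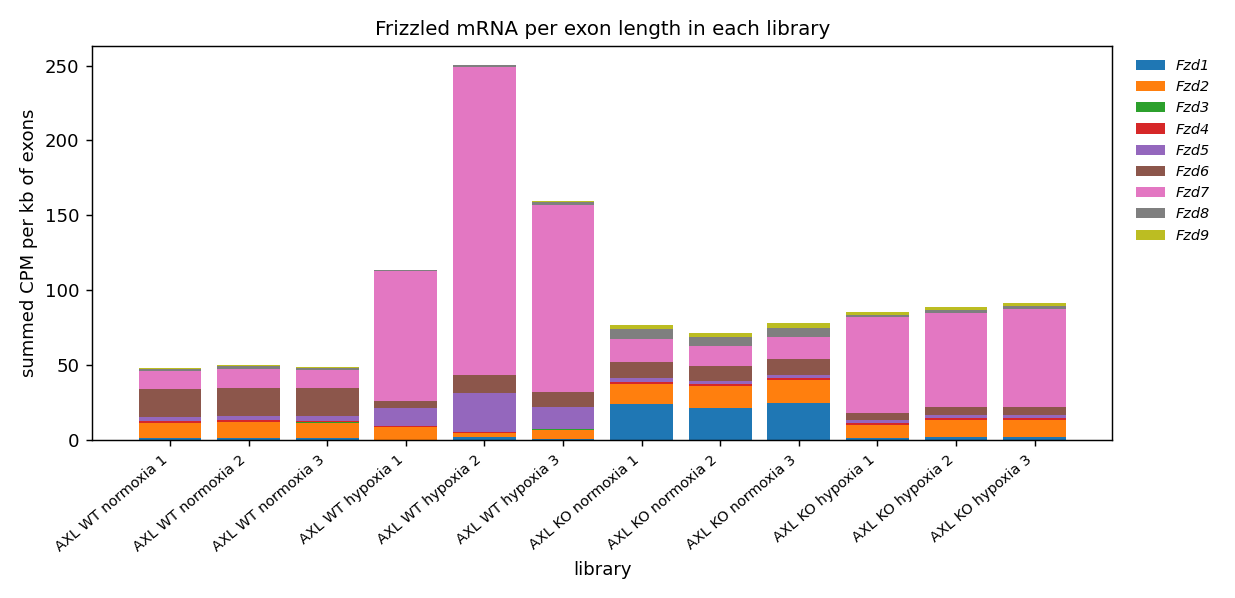
Summed CPM per kilobase of exons (y axis) of the 9 Frizzled receptors, stacked by gene, in each of the 12 libraries (x axis). Fzd7 fills most of every hypoxia bar, Fzd1 is the largest piece of the AXL KO normoxia bars, and the AXL WT hypoxia bars differ most in height.

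Of the coreceptors and other receptors, Lgr6 was nearly lost in AXL KO, Lrp5 rose in hypoxia in AXL WT but was not called in AXL KO, Lgr4 rose in hypoxia in both genotypes, and Lrp6 and Ror1 were higher in AXL KO at both oxygen levels. Of the 5 tested, 4 were higher and 1 lower in AXL KO in normoxia (59.7% of all genes called), and 2 higher and 2 lower in hypoxia (63%). Lgr5, a stem cell marker of the gut and mammary gland, had 8 counts and Ror2 2 counts over all libraries, so that neither was tested.

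**Figure D5:**
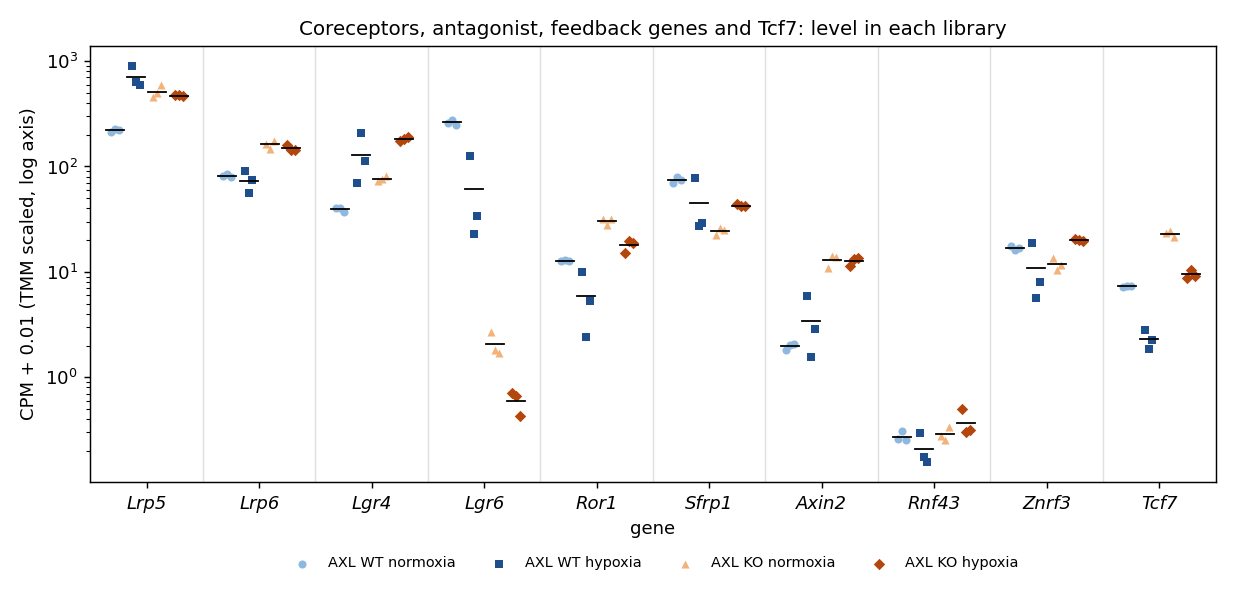
CPM + 0.01 (TMM scaled, y axis, log scale) of the tested coreceptors and other receptors, of Sfrp1, and of the feedback genes and Tcf7 (x axis) in each of the 12 libraries, with marker shape and colour giving the group and black bars the group means. Lgr6 is low in all AXL KO libraries, and Lgr6, Sfrp1, Axin2 and Znrf3 show the wide spread of the AXL WT hypoxia libraries.

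Lgr6, an R-spondin receptor of skin and mammary progenitors (ENSMUSG00000042793, chromosome 1, 134983301 to 135105276, minus strand), stood at 259, 278 and 249 CPM in normoxia and 126, 22.9 and 33.7 in hypoxia in AXL WT, and at 2.698, 1.81 and 1.68 in normoxia and 0.703, 0.649 and 0.418 in hypoxia in AXL KO. No AXL KO library reached the lowest AXL WT library. Lgr6 was lower in AXL KO in normoxia (−6.99 ± 0.63, adjusted p = 1.65e-06) and also in hypoxia (−6.69 ± 0.66, adjusted p = 4.54e-06; −7.75 on replicate 1 alone and −5.59 without replicate 1). Hypoxia lowered it in AXL WT (−2.1 ± 0.49, adjusted p = 0.00302; −1.04 on replicate 1 alone and −3.2 without it). It was also called lower in AXL KO hypoxia (−1.81 ± 0.64, adjusted p = 0.0302). That call in AXL KO was lost on leaving out any of AXL KO normoxia replicate 1 and AXL KO hypoxia replicates 1, 2 and 3 (adjusted p = 0.0596 to 0.0939); no low-count filter and limma-voom also removed it. The difference between the responses was 0.30 ± 0.83 (adjusted p = 0.829), or −0.76 (adjusted p = 0.0373) on replicate 1 alone and 1.4 (adjusted p = 0.00439) without it. Its promoter is printed as that of the receptor with the largest genotype difference in hypoxia, and it holds neither motif in this window and 24 CpG dinucleotides.
Lgr6, chr1:135105227-135105526, minus strand: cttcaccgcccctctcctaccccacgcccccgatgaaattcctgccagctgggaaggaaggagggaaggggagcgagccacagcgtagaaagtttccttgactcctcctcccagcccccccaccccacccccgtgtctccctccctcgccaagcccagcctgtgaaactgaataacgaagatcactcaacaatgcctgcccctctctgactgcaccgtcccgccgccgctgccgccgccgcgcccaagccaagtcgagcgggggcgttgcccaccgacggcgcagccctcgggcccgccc

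Lrp5, a coreceptor that forms the β-catenin signalling complex with Frizzleds (ENSMUSG00000024913, chromosome 19, 3584828 to 3686564, minus strand), stood at 212, 226 and 222 CPM in normoxia and 904, 629 and 594 in hypoxia in AXL WT, and at 461, 494 and 588 in normoxia and 476, 475 and 462 in hypoxia in AXL KO. AXL WT normoxia was lowest and AXL WT hypoxia highest, and the AXL KO groups overlapped between these. Hypoxia raised Lrp5 in AXL WT (1.69 ± 0.15, adjusted p = 2.68e-06; 2.05 on replicate 1 alone), the response in AXL KO was −0.13 ± 0.15 (adjusted p = 0.474), and the difference of responses was −1.82 ± 0.21 (adjusted p = 9.76e-05; −2.17 on replicate 1 alone). AXL KO was higher than AXL WT in normoxia (1.23 ± 0.15, adjusted p = 1.94e-05) and lower in hypoxia (−0.59 ± 0.15, adjusted p = 0.00389; −0.95 on replicate 1 alone and −0.38 without it).

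Lrp6, the other coreceptor of this complex, stood at 81.8, 84.9 and 79.6 CPM in normoxia and 90.1, 56.3 and 73.7 in hypoxia in AXL WT, and at 162, 148 and 176 in normoxia and 161, 143 and 145 in hypoxia in AXL KO. All AXL KO libraries lay above all AXL WT libraries, by 0.98 ± 0.15 (adjusted p = 0.000106) in normoxia and 1.03 ± 0.15 (adjusted p = 8.28e-05) in hypoxia (0.72 on replicate 1 alone). Hypoxia gave −0.16 ± 0.14 (adjusted p = 0.352) in AXL WT (0.15 on replicate 1 alone and −0.33, adjusted p = 0.0238 without it). The response in AXL KO was −0.12 ± 0.14 (adjusted p = 0.514).

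Lgr4, the broadly expressed R-spondin receptor, stood at 40.6, 40.8 and 37.3 CPM in normoxia and 69.6, 206 and 112 in hypoxia in AXL WT, and at 73.03, 75.5 and 82.1 in normoxia and 174, 184 and 191 in hypoxia in AXL KO. Hypoxia raised it in AXL WT (1.71 ± 0.29, adjusted p = 0.000316; 0.83 on replicate 1 alone) and in AXL KO (1.25 ± 0.28, adjusted p = 0.00249). The difference between the responses was −0.45 ± 0.39 (adjusted p = 0.42), or 0.43 (adjusted p = 0.00633) on replicate 1 alone and −0.75 (adjusted p = 0.02) without it. AXL KO was higher in normoxia (0.96 ± 0.28, adjusted p = 0.0109). In hypoxia the libraries of the genotypes overlapped (0.50 ± 0.28, adjusted p = 0.132), and on replicate 1 alone the difference was 1.39 (adjusted p = 3.48e-09).

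Ror1, a receptor for WNT5A, stood at 12.7, 12.9 and 12.7 CPM in normoxia and 9.94, 2.39 and 5.26 in hypoxia in AXL WT, and at 31.8, 27.5 and 31.4 in normoxia and 15.1, 19.7 and 18.7 in hypoxia in AXL KO. It was higher in AXL KO without overlap, by 1.25 ± 0.35 (adjusted p = 0.00843) in normoxia and 1.6 ± 0.36 (adjusted p = 0.00206) in hypoxia. The difference in hypoxia was 0.84 on AXL WT hypoxia replicate 1 alone and 2.21 without that library. In AXL WT it was lower in hypoxia (−1.12 ± 0.35, adjusted p = 0.0166; −0.35, adjusted p = 0.0445 on replicate 1 alone and −1.72 without it). That call was lost on leaving out AXL WT hypoxia replicate 3 (adjusted p = 0.0565); the 6 compared libraries alone also removed it. The response in AXL KO was −0.76 ± 0.34 (adjusted p = 0.0772), or −0.75 (adjusted p = 0.0039) without AXL WT hypoxia replicate 1. The difference of responses was 0.36 ± 0.49 (adjusted p = 0.628; −0.41 on replicate 1 alone and 0.97, adjusted p = 0.019 without it). Wnt5a and Ror1, a ligand and a receptor known to act together, were thus both higher in AXL KO at both oxygen levels.

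Of the 7 secreted antagonists, Sfrp1 was tested and the others were near or at 0. Sfrp1, which binds WNT ligands and is often silenced in breast cancer, stood at 70.03, 78.8 and 73.95 CPM in normoxia and 78.1, 27.3 and 28.98 in hypoxia in AXL WT, and at 22.3, 26.3 and 25.1 in normoxia and 43.9, 42.1 and 41.8 in hypoxia in AXL KO. AXL WT hypoxia replicate 1 lay with the AXL WT normoxia libraries, and replicates 2 and 3 lay near AXL KO normoxia. Sfrp1 was lower in AXL KO in normoxia (−1.6 ± 0.32, adjusted p = 0.000995). In hypoxia the difference was −0.07 ± 0.31 (adjusted p = 0.851), or −0.88 (adjusted p = 5.24e-07) on replicate 1 alone, and 0.60 (adjusted p = 9.8e-05) without replicate 1, so that the sign turned with the AXL WT hypoxia libraries used. Hypoxia gave −0.73 ± 0.31 (adjusted p = 0.0623) in AXL WT (0.09, adjusted p = 0.447 on replicate 1 alone and −1.39, adjusted p = 9.48e-08 without it).

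In AXL KO Sfrp1 was called higher in hypoxia (0.79 ± 0.31, adjusted p = 0.0474), and the libraries did not overlap. That call was lost in 9 of the 12 fits that left out 1 library (adjusted p = 0.07 to 0.127), that is, without any library other than AXL WT hypoxia replicates 1, 2 and 3; library size as the only scaling, no low-count filter and the replicate number as a block also removed it. The responses differed between genotypes by 1.52 ± 0.44 (adjusted p = 0.0238; 0.72 on replicate 1 alone and 2.19 without it). The interaction call was lost on leaving out any of AXL WT normoxia replicates 1, 2 and 3, AXL KO normoxia replicates 1 and 3, AXL KO hypoxia replicate 1 (adjusted p = 0.0511 to 0.0623); no low-count filter also removed it.

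Sfrp2 had 55 counts in all, the most among the untested members, of which 39 lay in AXL KO normoxia, 15 in AXL KO hypoxia and 1 in AXL WT normoxia. The ratio of AXL KO to WT was 38.1 (95% counting interval 6.45 to 1544) in normoxia, and in hypoxia Sfrp2 was at least 5.18-fold higher in AXL KO. Wif1 had 10 counts, of which 7 lay in AXL KO normoxia. Dkk1, Dkk2 and Dkk3, named for Dickkopf, had 5 counts each over all libraries, and Sfrp4 had none. No group mean of an untested member exceeded 0.227 CPM.

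Of the feedback and nuclear genes, Axin2 and Tcf7 were higher in AXL KO at both oxygen levels, Tcf7 fell in hypoxia in both genotypes, and Rnf43 was not called in any comparison. Axin2, a scaffold of the β-catenin destruction complex and a widely used target gene of that branch (ENSMUSG00000000142, chromosome 11, 108920349 to 108950783, plus strand), stood at 1.82, 1.99 and 2.06 CPM in normoxia and 5.92, 1.55 and 2.85 in hypoxia in AXL WT, and at 10.9, 14.04 and 13.9 in normoxia and 11.4, 13.3 and 13.4 in hypoxia in AXL KO. All AXL KO libraries lay above all AXL WT libraries. Axin2 was higher in AXL KO by 2.73 ± 0.37 (adjusted p = 4.93e-05) in normoxia and 1.88 ± 0.36 (adjusted p = 0.000672) in hypoxia. The difference in hypoxia was 1.1 (adjusted p = 3.48e-05) on AXL WT hypoxia replicate 1 alone and 2.52 without that library. Hypoxia gave −0.03 ± 0.34 (adjusted p = 0.961) in AXL KO. In AXL WT it gave 0.81 ± 0.36 (adjusted p = 0.0689), or 1.61 (adjusted p = 5.68e-07) on replicate 1 alone, where the responses of the genotypes also differed (−1.63, adjusted p = 1.13e-05; with all libraries −0.84 ± 0.49, adjusted p = 0.224).

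Tcf7, a nuclear partner of β-catenin, stood at 7.14, 7.29 and 7.33 CPM in normoxia and 2.78, 1.83 and 2.22 in hypoxia in AXL WT, and at 23.1, 24.5 and 21.4 in normoxia and 8.83, 10.3 and 9.198 in hypoxia in AXL KO. The AXL KO libraries lay above the AXL WT libraries at each oxygen level, by 1.66 ± 0.15 (adjusted p = 2.1e-06) in normoxia and 2.05 ± 0.16 (adjusted p = 7.06e-07) in hypoxia (1.76 on replicate 1 alone). Hypoxia lowered it in AXL WT (−1.67 ± 0.16, adjusted p = 4.75e-06; −1.37 on replicate 1 alone) and in AXL KO (−1.28 ± 0.15, adjusted p = 2.84e-05), with a difference between the responses of 0.39 ± 0.22 (adjusted p = 0.205; 0.10 on replicate 1 alone and 0.55, adjusted p = 0.0214 without it). Lef1, its relative, had 4 counts over all libraries.

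Znrf3, which removes Frizzleds from the cell surface, stood at 17.4, 16.02 and 16.8 CPM in normoxia and 18.7, 5.65 and 7.96 in hypoxia in AXL WT, and at 13.5, 10.5 and 11.5 in normoxia and 20.4, 20.2 and 19.6 in hypoxia in AXL KO. As for Wnt9a and Sfrp1, AXL WT hypoxia replicates 2 and 3 lay below replicate 1. Znrf3 was called higher in AXL KO in hypoxia (0.90 ± 0.33, adjusted p = 0.031; 0.10, adjusted p = 0.541 on replicate 1 alone and 1.56 without it). That call was lost on leaving out any of AXL WT hypoxia replicates 2 and 3 and AXL KO hypoxia replicates 1, 2 and 3 (adjusted p = 0.0628 to 0.116); library size as the only scaling, no low-count filter and the 6 compared libraries alone also removed it. The responses were called different (1.4 ± 0.46, adjusted p = 0.0401; 0.60, adjusted p = 0.00643 on replicate 1 alone and 2.06 without it). The response was −0.64 ± 0.33 (adjusted p = 0.112) in AXL WT (0.17 on replicate 1 alone and −1.29, adjusted p = 1.08e-05 without it). In AXL KO it was 0.76 ± 0.33 (adjusted p = 0.0632), or 0.77 (adjusted p = 0.000191) without AXL WT hypoxia replicate 1. In normoxia all AXL KO libraries lay below all AXL WT libraries. That difference was not called with all 12 libraries, but 4 of 23 alternatives called AXL KO lower (−0.76 to −0.42 over all 23). Without AXL WT hypoxia replicate 1 it was −0.51 (adjusted p = 0.00405). The interaction call was lost in 10 of the 12 fits that left out 1 library (adjusted p = 0.0591 to 0.0945), that is, without any library other than AXL WT hypoxia replicates 1 and 2; no low-count filter also removed it. Rnf43, its relative, was read at group means of 0.263, 0.199, 0.28 and 0.361 CPM in AXL WT normoxia, AXL WT hypoxia, AXL KO normoxia and AXL KO hypoxia. The difference was 0.85 ± 0.36 (adjusted p = 0.0538) between genotypes in hypoxia (0.31 on replicate 1 alone and 1.2, adjusted p = 0.0133 without AXL WT hypoxia replicate 1). Nkd1, a feedback antagonist, had 6 counts, every one in AXL KO hypoxia, where it was at least 2.07-fold higher than in AXL WT hypoxia.

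Other genes of the pathway were followed by list, and their group means are given in the order AXL WT normoxia, AXL WT hypoxia, AXL KO normoxia and AXL KO hypoxia. Beside the list counts, 63% of all genes were called between genotypes in hypoxia (29.9% higher, 33% lower) and 59.7% in normoxia (29.7% and 30%). Between oxygen levels 59.8% were called in AXL WT (29.2% higher, 30.7% lower) and 58% in AXL KO (27.3% and 30.6%). Of 11 genes of WNT secretion and R-spondins 7 were tested; 6 were higher and none lower in AXL KO in normoxia, and 5 and none in hypoxia. Notum, an enzyme that strips the lipid from WNT proteins and is itself a feedback target, stood at means of 3.66, 9.93, 34.7 and 15.6 CPM. It was higher in AXL KO in normoxia by 3.24 ± 0.14 (adjusted p = 3.15e-09), rose in hypoxia in AXL WT (1.44 ± 0.13, adjusted p = 2.92e-06; 1.45 on replicate 1 alone) and fell in AXL KO (−1.15 ± 0.12, adjusted p = 1.45e-05). The responses differed by −2.59 ± 0.18 (adjusted p = 4.53e-06; −2.59 on replicate 1 alone). Porcn, which adds that lipid, stood at 6.05, 3.16, 19.3 and 5.74 CPM and fell in hypoxia in AXL KO (−1.75 ± 0.24, adjusted p = 7.35e-05). The glypican Gpc4 had no count in AXL WT and stood at 103 and 92.5 CPM in AXL KO, at least 5760.0-fold and 4208-fold higher in normoxia and hypoxia.

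Of 8 other receptors and coreceptors 5 were tested, and 3 were higher and none lower in AXL KO at each oxygen level. These were Reck, a coreceptor for WNT7A and WNT7B (9.44, 7.003, 45.7 and 43.4 CPM; 2.28 ± 0.14, adjusted p = 5.52e-08 in normoxia and 2.63 ± 0.14, adjusted p = 2.19e-08 in hypoxia), Ryk, a receptor for WNT5A (96.8, 66.04, 136 and 178 CPM; 0.49 ± 0.09, adjusted p = 0.000589 and 1.43 ± 0.09, adjusted p = 1.31e-07) and the pseudokinase Ptk7 (130.3, 94.8, 363 and 301 CPM; 1.48 ± 0.22, adjusted p = 0.000121 and 1.67 ± 0.22, adjusted p = 5.53e-05). On replicate 1 alone the values in hypoxia were 2.45 for Reck, 1.35 for Ryk and 1.12 for Ptk7. Of 11 other antagonists and feedback genes 4 were tested, with 3 higher and none lower in AXL KO in normoxia and 2 and 1 in hypoxia. Apcdd1, an inhibitor at the cell surface, had no count in AXL WT and stood at 2.84 and 4.56 CPM in AXL KO, at least 159-fold and 208-fold higher. None of 6 further WNT ligands passed the filter.

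In the intracellular β-catenin arm, 26 of 27 genes were tested: 13 were higher and 6 lower in AXL KO in hypoxia, 11 and 7 in normoxia, and hypoxia raised 11 and lowered 4 in AXL WT and raised 8 and lowered 8 in AXL KO. With library size as the only scaling the splits were 10 and 7, 9 and 9, 8 and 8, and 5 and 8. Tcf7l1, a TCF factor that mostly represses, was higher in AXL KO (2.64, 4.201, 14.4 and 21.6 CPM; 2.44 ± 0.25, adjusted p = 5.88e-06 in normoxia and 2.36 ± 0.25, adjusted p = 8.96e-06 in hypoxia, 1.75 on replicate 1 alone). The median of this list was 0.23 in normoxia, or −0.03 with library size as the only scaling. Of 10 further β-catenin target genes 7 were tested, with 1 higher and 4 lower in AXL KO in hypoxia and 1 and 3 in normoxia. Bambi, a membrane inhibitor of TGF-β receptors, was lower in AXL KO (5.196, 10.4, 1.64 and 2.503 CPM; −1.66 ± 0.26, adjusted p = 0.000178 in normoxia and −2.06 ± 0.26, adjusted p = 3.85e-05 in hypoxia, −2.37 on replicate 1 alone), while Sp5 stood at 0.943, 0.737, 0.0755 and 0.0228 CPM. Axin2, Notum and Tcf7 were thus higher in AXL KO normoxia, while Bambi, Sp5 and Ccnd1 (−0.94 ± 0.28, adjusted p = 0.011) were lower. Hypoxia lowered Ccnd1, which drives the cell cycle, in AXL WT (−3.49 ± 0.30, adjusted p = 2.25e-06) and in AXL KO (−1.48 ± 0.28, adjusted p = 0.000791), and lowered Myc as well (−2.17 ± 0.16, adjusted p = 7.74e-07 and −3.21 ± 0.17, adjusted p = 1.21e-07). On replicate 1 alone the values in AXL WT were −2.85 for Ccnd1 and −2.04 for Myc.

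In the planar polarity arm 13 of 14 genes were tested, with 6 higher and 2 lower in AXL KO in hypoxia and 4 and 2 in normoxia. Hypoxia raised 6 and lowered 2 of them in AXL WT, and raised 5 and lowered 2 in AXL KO. With library size as the only scaling the splits were 4 and 4 between genotypes in hypoxia and 5 and 3 for hypoxia in AXL WT. The cadherin Celsr2 was higher in AXL KO (1.21, 0.93, 15.8 and 15.2 CPM; 3.7 ± 0.30, adjusted p = 7.18e-07 in normoxia and 4.04 ± 0.31, adjusted p = 5.93e-07 in hypoxia, 4.72 on replicate 1 alone), and Prickle2 was lower (3.34, 3.93, 0.18 and 0.0612 CPM; −4.19 ± 0.25, adjusted p = 5.58e-08 and −5.95 ± 0.30, adjusted p = 1.52e-08, −5.75 on replicate 1 alone). The median of the list in normoxia was 0.17, or −0.09 with library size as the only scaling. As for the members, these counts stand beside 58% to 63% of all genes called and are a description of the lists.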

How the data were processed

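The deposited files hold raw counts of reads per gene and library, which the authors made with featureCounts 1.6.0 on Ensembl release 93 with strand setting 2, per the file headers. The submitters' processing notes name the build GRCm38 and the tools STAR 2.5.1b, FastQC 0.11.5, featureCounts 1.4.6 and DESeq2 1.12.3. The counts of the 12 libraries were analysed in R 4.3.3 with edgeR 4.0.16: TMM scaling, the filterByExpr filter (10 counts at the median library, or 0.2066 CPM, in 3 libraries; 16767 genes kept and 37465 removed), 1 mean per group, robust quasi-likelihood fits with 8 residual degrees of freedom, and Benjamini-Hochberg adjustment over all genes tested. The script was tested on simulated data.

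CPM were computed from the same counts and TMM factors, and CPM per kilobase with the exon lengths of the files. A gene without counts in a group was set against a floor of 3 counts over the group, and counts of 1 to 3 gave ratios with exact 95% intervals. Symbols came from a table of gene names. Alternatives were no filter, a filter of 5 CPM in 3 libraries, library size alone, RLE size factors, DESeq2 1.42.0, limma-voom (limma 3.58.1), a voom weight per group, the 6 compared libraries alone, the replicate number as a block, a minimum fold of 2, each library left out in turn, and AXL WT hypoxia replicates 2 and 3 left out. The members, gene lists and alternatives were chosen with earlier results of these data known. Members called in at least 1 comparison and reaching a group mean of 1 CPM were given in full, and from each further list up to 3 genes per comparison with the smallest p.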

Additional observations from a re-analysis of the deposited data

Results flagged for a closer look

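The response to hypoxia differed between AXL KO and AXL WT cells by the interaction test (edgeR, adjusted p under 0.05) for 9 genes. That is 34.6% of the 26 tested members, beside 28.8% of all genes. The values are the log2 response in AXL KO minus that in AXL WT. The response was lower in AXL KO for the ligands Wnt5b (−1.91) and Wnt10a (−3.57), the receptors Fzd1 (−2.86), Fzd5 (−2.76) and Fzd7 (−1.33), and the coreceptor Lrp5 (−1.82). It was higher in AXL KO for the receptor Fzd3 (3.27), the antagonist Sfrp1 (1.52) and the ubiquitin ligase Znrf3 (1.4). That of Fzd1 was −0.11 (adjusted p = 0.91) with AXL WT hypoxia replicates 2 and 3 left out. The calls of Znrf3, Sfrp1 and Fzd1 were lost in 10, 6 and 1 of the 12 fits that left out 1 library. The call of Fzd3 rests on 6 and 27 counts in AXL KO normoxia and hypoxia. No cause was tested for any of the 9 genes.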

How the results depend on the processing

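Of 75 calls of single genes over the 5 comparisons, 37 were kept under every alternative and 38 were lost under at least 1. The minimum fold of 2 by itself removed 38, so every call that was lost was lost there. That setting asks for a larger difference, and each other setting removed at most 12. Requiring a minimum fold of 2 left 5 higher and 6 lower genes between genotypes in hypoxia, 7 higher in normoxia, 2 lower for hypoxia in AXL WT, 2 higher and 3 lower in AXL KO, and 1 higher and 3 lower in the interaction. The counts over all genes at that setting were 1871 and 2249, 2024 and 2060, 1769 and 1663, 1291 and 1678, and 415 and 518 in the same order. Only counts of members that changed by over 1.5 times are given in this paragraph. At the minimum fold of 2, Wnt7a, Fzd3, Lgr6 and Sfrp1 were still called lower in AXL KO in normoxia. Fzd5, Fzd7, Lgr4 and Lrp5 were still called higher for hypoxia in AXL WT. The 6 compared libraries alone gave 7 higher between genotypes in hypoxia and 4 lower for hypoxia in AXL WT, and no low-count filter gave 1 higher in the interaction; the cause was not tested. All genes gave 3840 higher, 3751 lower and 1858 higher at these settings, against 5016, 5140 and 2264 as reported. With AXL WT hypoxia replicates 2 and 3 left out, hypoxia raised 8 in AXL WT and 6 were higher in the interaction, beside 5430 and 3275 of all genes. The same fit turned the sign of Fzd6 between genotypes in hypoxia (0.13), of Wnt9a for hypoxia in AXL WT (0.45), and of Fzd8 (0.78), Lgr4 (0.43) and Lgr6 (−0.76) in the interaction, where the fit without replicate 1 of that group gave −1.9, −0.75 and 1.4.

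Leaving out 1 library gave 7 to 13 higher and 9 to 10 lower between genotypes in hypoxia (7 without AXL KO hypoxia replicate 2), 12 to 13 and 5 to 7 in normoxia, 5 to 6 and 5 to 13 for hypoxia in AXL WT (5 lower without AXL WT normoxia replicate 1 or 3 or AXL WT hypoxia replicate 3, 13 without AXL WT hypoxia replicate 1), and 3 to 7 and 7 to 11 in AXL KO (3 without AXL KO normoxia replicate 1 or AXL KO hypoxia replicate 1). The interaction ran from 1 to 7 higher and 5 to 8 lower, with 7 without AXL WT hypoxia replicate 1 and 1 without any AXL WT normoxia library, AXL KO normoxia replicate 1 or 3, or AXL KO hypoxia replicate 1. Over all genes these fits moved as well: 4194 were higher and 4148 lower in the interaction without AXL WT hypoxia replicate 1 (2264 and 2566 as reported), 5970 were lower for hypoxia in AXL WT without it (5140), and 4512 were higher between genotypes in hypoxia without AXL KO hypoxia replicate 2 (5016). Sfrp1 between genotypes in hypoxia ran from −0.34 to 0.60.

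The replicate number as a block gave 12 higher and 10 lower between genotypes in hypoxia, 12 and 5 in normoxia, 5 and 9 for hypoxia in AXL WT, 5 and 8 in AXL KO, and 3 and 6 in the interaction. Same-numbered libraries correlated between −0.0645 and 0.142, with 2 of 18 correlations over 0.1. Unlike-numbered libraries reached −0.264 and 0.221 (AXL WT hypoxia replicate 3 with AXL KO hypoxia replicates 1 and 2). Whether the numbers pair the samples cannot be told from these values, since a small shared effect could be hidden by other variation. Library size as the only scaling moved the median of all genes to −0.21 and −0.29 between genotypes in hypoxia and normoxia and to −0.32 and −0.23 for hypoxia in AXL WT and AXL KO, and it reversed no called gene. The 3 libraries per group limit the precision, and genes under the filter could not be compared beyond counting error. Genes of the further lists were not refitted with single libraries left out.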
